A study of Gallus gallus with 6 samples.

Results

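The loci described here were 231 candidate microRNA loci of the embryonic chick heart whose predicted hairpin held 55% or more G and C. They had no hairpin overlap, on the same strand, with a known microRNA that the lists of these libraries gave with a position. They were drawn from the lists of predicted microRNAs of all 6 libraries, which held 614 distinct loci by chromosome, strand, start and end. Of these, 96 had a hairpin that overlapped the hairpin of a listed known microRNA on the same strand and were set aside. The day 10 list of predicted microRNAs held 141 of the 231 loci. In the known list of that day, 363 lines held a name and no position. Overlap with their hairpins could not be judged unless another library listed them. Of the other 518, 287 had a hairpin GC below 55% and served as the comparison. The measured values that chose the 231 loci were position and hairpin GC, so GC and what follows from base composition are given as descriptions.

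Small RNA of 18 to 30 nt was sequenced from hearts of Gallus gallus embryos after 4 (HH24), 6 (HH29), 8 (HH34), 10 (HH36), 12 (HH38) and 14 (HH40) days of incubation, HH being the Hamburger-Hamilton stage. Each stage was 1 library, no treatment was named, and the number of hearts behind each library was not given in the sources used here. The total of reads behind the deposited RPM, the reads of a sequence scaled to a common library size, ran from 228290 on day 14 to 37495805 on day 12. With 1 library a stage, a difference between stages has no replicate check, and fewer cells of a type cannot be told apart from less RNA per cell. Among tissue markers in the known lists, miR-133, a microRNA of heart and skeletal muscle, had reads in 5 of 6 libraries, as did miR-126 of endothelium, miR-9 of neural cells and miR-122 of liver, while miR-499 of muscle was listed on day 10 alone, with 712093 reads. On days 6 and 8 miR-122 had 4939 and 1223 reads and miR-9 had 5824 and 4685, above the 3020 and 102 of miR-133, and on days 10 and 12 miR-133 was the higher. Of the other markers looked for, miR-124 of neural cells was listed in 2 libraries, with 48 reads on day 6 and 25 on day 10. The markers miR-206 of muscle, miR-21 of fibroblasts and miR-144 of red blood cells were each in 2 libraries, and miR-199 of fibroblasts was in 4. The muscle microRNAs miR-1 and miR-208 and the red blood cell microRNA miR-451 had no row in the lists analysed here.

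A microRNA is cut from a transcript that folds back on itself. In the nucleus Drosha releases a stem-loop, and in the cytoplasm Dicer removes the loop and leaves a duplex of the mature strand and its partner, the star strand. An Argonaute protein keeps the mature strand, often one that starts with U, and finds messenger RNAs through the seed near its 5′ end. Reads from both strands of the duplex with staggered 3′ ends are therefore a usual sign of a microRNA, while ribosomal and transfer RNAs also fold and leave short fragments in small RNA libraries.

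The sequences that carried most reads, or were listed at most stages, are shown first, 5′ to 3′, as the files write them (T for U), with the seed (bases 2 to 8) in capitals. Positions are those the files give on Gallus gallus v.2.1. The pair from chromosomes 6 and 9 was the most sequenced, the pair from chromosomes 15 and Z had the most reads on a star strand outside it, and the others recurred or had several genomic hits.
chr6:9697225-9697247, plus strand, and chr9:4406098-4406120, plus strand: gGAATACCgggtgctgtaggctt
chr6:9697226-9697247, plus strand: gAATACCGggtgctgtaggctt
chr15:398725-398745, minus strand: cAGTGCAAtaatgaaagggcg
chrZ:44167547-44167568, minus strand: aAAGGACGgaggcggcccgcgc
chr3:4348337-4348358, plus strand: aCGGGACAgtgctgaagactac
chr5:19864522-19864543, plus strand: cTGGCGCGcgtccgtcctgggc
chr11:20417903-20417925, minus strand: tCTGGCTGccgcctactgacacc
chr2:102256436-102256456, plus strand: aAACGTGGgcggctctgccct
chr16:145177-145198, plus strand: aGGATTCGgcgctctcaccgcc
chr26:1607737-1607759, plus strand: cCGGATAGctcagtcggtagagc
chr3:104811210-104811232, minus strand: gTAGTCGTggccgagtggttaag
chr2:66481532-66481555, minus strand: tGGTCTAGgggtatgattctcgct

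The predicted hairpins of 4 of these are shown with the mature sequence in capitals, because their shapes and star strands differed as described further on.
chr15:398711-398797, minus strand: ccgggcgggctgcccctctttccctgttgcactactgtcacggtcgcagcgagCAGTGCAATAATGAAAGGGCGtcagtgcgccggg
chrZ:44167510-44167570, minus strand: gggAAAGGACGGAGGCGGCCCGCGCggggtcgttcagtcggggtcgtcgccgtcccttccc
chr6:9697185-9697250, plus strand: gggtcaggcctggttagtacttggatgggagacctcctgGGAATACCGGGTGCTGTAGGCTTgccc
chr26:1607732-1607827, plus strand: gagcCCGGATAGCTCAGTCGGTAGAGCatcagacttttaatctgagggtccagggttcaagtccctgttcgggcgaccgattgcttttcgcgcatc

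The 231 loci were spread unevenly over the libraries. The libraries of days 4 and 14 listed 1 each, and those of days 6, 8, 10 and 12 listed 33, 27, 141 and 59. Among loci away from known hairpins, those with GC of 55% or more made up 33 of 48 (68.8%) on day 6 and 27 of 43 (62.8%) on day 8, but 141 of 330 (42.7%) on day 10 and 59 of 141 (41.8%) on day 12. The lists did not share a read minimum. The lowest count of a GC-rich locus was 2 on day 10 and 6 on days 6, 8 and 12, and 87 of the 141 GC-rich loci of day 10 had exactly 2 reads. At 6 reads or more day 10 kept 19 GC-rich loci, fewer than the 33 of day 6. The lists also covered different lengths: the mature sequences of the GC-rich loci were all 21 nt on day 10 and all 23 nt on day 8, against 21 to 24 nt on days 6 and 12. A sequence that was missing from a list is therefore not shown to be absent from the heart of that stage.

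Most of these loci had few reads. On days 6, 8, 10 and 12 the median was 12, 13, 2 and 7 reads per locus, against 15, 13, 2 and 6 for the loci of lower GC in the same libraries. Median log2 reads averaged 2.77 for the GC-rich loci and 2.80 for the others over the 4 libraries, a difference of -0.02 ± 0.22 (SD, n = 4 libraries; two-sided exact paired permutation p = 1). The groups could not be told apart in abundance at this number of libraries, for which an exact test of this kind allows no p below 0.13. On days 10 and 12 the medians lay at or near the lowest count listed, which limits what they can show. The known microRNAs of these libraries had medians of 815.5, 774, 501.5 and 1709 reads.

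**Figure D1:**
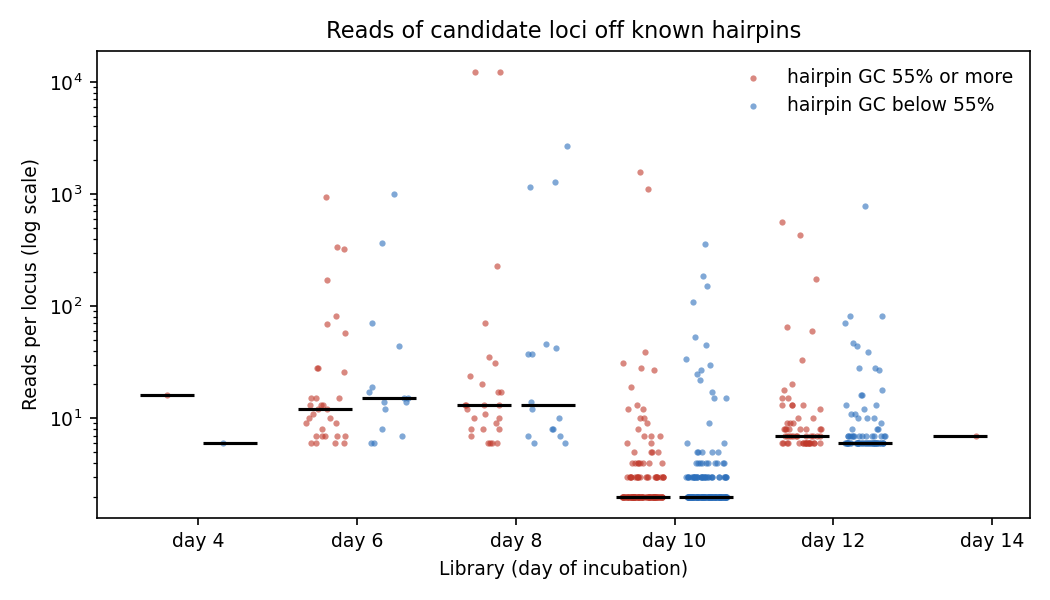
Reads per locus (log scale) in each library, with 1 point per locus and a black line at the median, for GC-rich loci (red) and loci of lower GC (blue). The medians lie close together within each library from day 6 to day 12, and the 2 red points of 12230 reads on day 8 are 1 sequence listed at 2 places.

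The reads of the GC-rich loci rested on very few sequences. Counting each distinct sequence once, they summed to 2278, 12832, 3210 and 1769 reads in the libraries of days 6, 8, 10 and 12, and to 16 and 7 reads in those of days 4 and 14. On day 8 this was 0.230% of the reads behind the RPM (95% Wilson interval 0.226 to 0.234%), on day 10 0.0936% (0.0905 to 0.0969%), on day 6 0.0246% (0.0236 to 0.0257%) and on day 12 0.00472% (0.00450 to 0.00494%). These intervals cover at most counting error, with each read taken as independent. Reads after amplification are not independent molecules, so the intervals may be too narrow even for that. The leading sequence alone held 41.0, 95.3, 49.0 and 31.8% of these reads on days 6, 8, 10 and 12. Without it, 602 reads remained on day 8, fewer than the 1345 that remained on day 6 and the 1637 on day 10.

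That leading sequence on days 6, 8 and 10 came from chromosome 6. It had 933 reads (101 RPM) on day 6 as the 22-nt form, 12230 reads (2188 RPM) on day 8 as the 23-nt form and 1573 reads (459 RPM) on day 10 as a 21-nt form, and no form of it was listed on days 4, 12 or 14. Each listed length was one that its library's list covered. The 3 forms start 1 base apart at most and share their core, and the files gave each of them 5 genomic hits. The second listed place, on chromosome 9, had the same 23-nt sequence on day 8 and a hairpin that shared a run of 56 identical bases with that of chromosome 6. As background, these letters are those of the 3′ end of vertebrate 5S ribosomal RNA, of which only the last bases pair with the 5′ end of that RNA. No ribosomal RNA reference was used here, so the match was not tested.

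The second pair of lead sequences had 1 genomic hit each. The chromosome 15 locus was listed on day 10 alone, with 1097 reads (320 RPM). It was the only one of the 231 loci whose mature sequence matched a known microRNA of these lists in 80% or more of its bases: 18 of 21 matched miR-130. It shared its seed with miR-130, miR-301 and miR-454, 3 microRNAs of a broadly conserved family. Its hairpin lay 1048 bases from that of miR-454 on the same strand. The 363 known lines of day 10 that held a name only entered neither this match nor the overlap check. Against them the locus was judged only where another library listed them. The listed sequence of miR-130 on chromosome 15 is cAGTGCAAtattaaaagggcat and that of miR-454 is tAGTGCAAtattgcttatagggt, with the seed in capitals. On day 10 miR-454 had 13 reads and miR-301 had 12, while on day 8 they had 40772 and 33317, so the chromosome 15 locus and these neighbours were not high in the same library. A 21-nt form of the miR-130 of chromosome 19 had 1462 reads on day 10, of the same order as the chromosome 15 locus. The length limits of the lists differ between these libraries and stand beside this contrast; their part in it was not tested.

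The chromosome Z sequence was listed at 3 stages. It had 334 reads (36.1 RPM) on day 6, 39 reads (11.4 RPM) on day 10 in a form 1 base shorter, and 432 reads (11.5 RPM) on day 12. In RPM it was highest on day 6, and days 10 and 12 were close to each other.

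Some sequences had several genomic hits, the chromosome 6 sequence described above among them. Of the 231 loci, 19 (8.23%), with 16 distinct sequences, had more than 1 hit, against 8 of 287 (2.79%) at lower GC. The share with more than 1 hit was higher at GC-rich loci in 3 of 4 libraries, by 3.22 ± 2.74 percentage points on average (SD, n = 4, exact paired permutation p = 0.25, adjusted p = 0.50 over the 6 measures compared). The smallest p that 4 libraries allow is 0.13, so the test could not decide. These few sequences held 51.5, 97.1, 51.0 and 35.4% of the reads of all GC-rich loci on days 6, 8, 10 and 12. Most of those reads were again the chromosome 6 sequence: 933 of 1173 on day 6, 12230 of 12458 on day 8 and 1573 of 1638 on day 10. The sequence with the most hits, 11, was that of chr2:66481532-66481555, with 65 reads (1.73 RPM) on day 12. The chr3:104811210-104811232 sequence had 8 hits and 69 reads (7.46 RPM) on day 6. The chromosome 16 sequence had 6 hits and 171 reads (18.5 RPM) on day 6. On day 12 it had 562 reads (15.0 RPM), the most of any GC-rich locus there. The chromosome 26 sequence had 2 hits and 228 reads (40.8 RPM) on day 8. As background, the letters of these sequences are those of transfer RNAs for proline, serine, glutamate and lysine, in that order, and the chromosome 26 hairpin printed above holds the rest of such a lysine transfer RNA. No transfer RNA reference was used here, and the match was not tested. The B-box letters GGTTCGA and GGTTCAA, read on the listed strand, stood in 1 and 2 of the 231 hairpins, in 1 and 1 of the 287 hairpins of lower GC, and in 1 and 2 of the 273 known loci.

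Star strands were listed at 12 of the 231 loci (5.19%) and at 17 of the 287 loci of lower GC (5.92%), against 151 of 273 known loci (55.3%). Per library the share at GC-rich loci was lower in 3 of 4, by 3.48 ± 3.55 percentage points on average (SD, n = 4, exact paired permutation p = 0.25, adjusted p = 0.50). Here too the smallest p that 4 libraries allow, 0.13, kept the test from deciding. Few of these star strands had many reads: of the 14 locus and library pairs with a star, 5 had 1 star read and 3 had more than 10. Of the 9 GC-rich loci with 100 reads or more in a library, 6 had a star listed, 4 of them at the chromosome 6 and 9 places. At that read count a star was listed at 2 of 8 loci of lower GC and at 122 of 186 known loci. Known loci had far more reads, and the part of read count in the gap over all loci was not tested.

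The star strands differed in how they sat against the mature strand. On the chromosome 15 hairpin star reads made up 10.01% of both strands beside 1097 mature reads, and the most frequent star, cctctttccctgttgcactac, had 102 reads. By the deposited structure the mature and the star 3′ ends each extended 1 nt past the other strand. On chromosome Z the star cggggtcgtcgccgtcccttcc was the same sequence on day 6 (6 reads) and day 12 (7 reads), 1.76% and 1.59% of both strands, with 3′ ends that extended 1 nt for the mature and 2 nt for the star strand. At chr11:20587399-20587421 the star had 5 reads beside 20 on day 8 and 2 beside 8 on day 12, 20.0% in both libraries, and the extensions were 1 or 2 nt. On day 10 the list gave the other arm of this place as its mature sequence, with 3 reads. This was the 1 place among the 231 loci whose listed mature sequence came from different arms in different libraries.

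The chromosome 6 and 9 hairpins stood apart from these. Their star strands had 2 to 17 reads beside 933 to 12230, at most 1.07% of both, and their 3′ ends fell 6 to 10 nt short of the base opposite the 5′ end of the mature strand, where the others extended past it. The deposited structures of both places had 2 terminal loops rather than 1. The single star read at chr14:13905476-13905496 (5 mature reads), chrZ:27578705-27578725 (10 reads), chr4:8572371-8572391 (2 reads) and chr1:104452109-104452131 (16 reads) gave 3′ extensions between 0 and 4 nt, and that at chr1:104484848-104484869 (7 reads) could not be placed on the structure.

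Recurrence over the stages was limited to a small set of places. Of the 231 loci, 204 were listed in 1 library, 23 in 2 and 4 in 3. Among loci of lower GC 14 of 287 (4.88%) were in 2 or more libraries, against 27 of 231 (11.7%). Without the loci listed on day 10 alone the shares were 13.6% and 28.4%, in 103 and 95 loci. This difference was not tested, since the loci of a library are not replicates. Many listed ends differed between libraries by 1 or 2 bases. When loci with overlapping hairpins were joined, the 231 loci fell into 219 places, of which 31 were listed in 2 or more libraries, 11 in 3 or more and 1 in 4. The loci of lower GC were not joined, so these counts have no comparison. Joining would raise recurrence there too. The lower-GC loci chr1:130934912-130934932 (days 10 and 12) and chr1:130934912-130934934 (days 6 and 8) had overlapping hairpins.

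The GC-rich place listed in 4 libraries was on chromosome 3, with the sequence at chr3:4348337-4348358. It had 325 reads (35.1 RPM) on day 6, 9 reads (1.61 RPM) on day 8, 12 reads (3.50 RPM) on day 10 and 176 reads (4.69 RPM) on day 12. The 22-nt form was listed on days 6 and 12, a 23-nt form on day 8 and a 21-nt form on day 10. The value on day 6 was the highest, and that on day 8 the lowest. The mature sequence paired over 68.2% of its bases in the deposited structure and no star was listed.

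The other recurrent places had fewer reads. The chromosome 5 sequence had 58 reads (6.27 RPM) on day 6, 8 reads (2.33 RPM) on day 10 in a form 1 base shorter and 60 reads (1.60 RPM) on day 12. The chr11:20417903-20417925 sequence had 15 reads (1.62 RPM) on day 6, 71 reads (12.7 RPM) on day 8 and 18 reads (0.480 RPM) on day 12. The chr2:102256436-102256456 sequence had 13 reads (1.41 RPM) on day 6, 28 (8.17 RPM) on day 10 and 20 (0.533 RPM) on day 12. In RPM, the 3 places were thus highest on days 6, 8 and 10 in turn. The sequences at chr23:4662665-4662687 (7, 31 and 12 reads on days 6, 8 and 12) and at chr4:40923895-40923915 (6, 10 and 13 reads on days 6, 10 and 12) were also listed 3 times. The former lay 1330 bases from the hairpin of miR-133 on the same strand. On day 12, the deepest library, 8 of the 10 places of this kind listed there had their lowest RPM, the exceptions being chromosome Z and chr3:4348337-4348358. The list minimum of 6 reads was worth 0.160 RPM on day 12, 0.649 RPM on day 6 and 1.07 RPM on day 8, and the part of this in the order of the days was not tested.

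**Figure D2:**
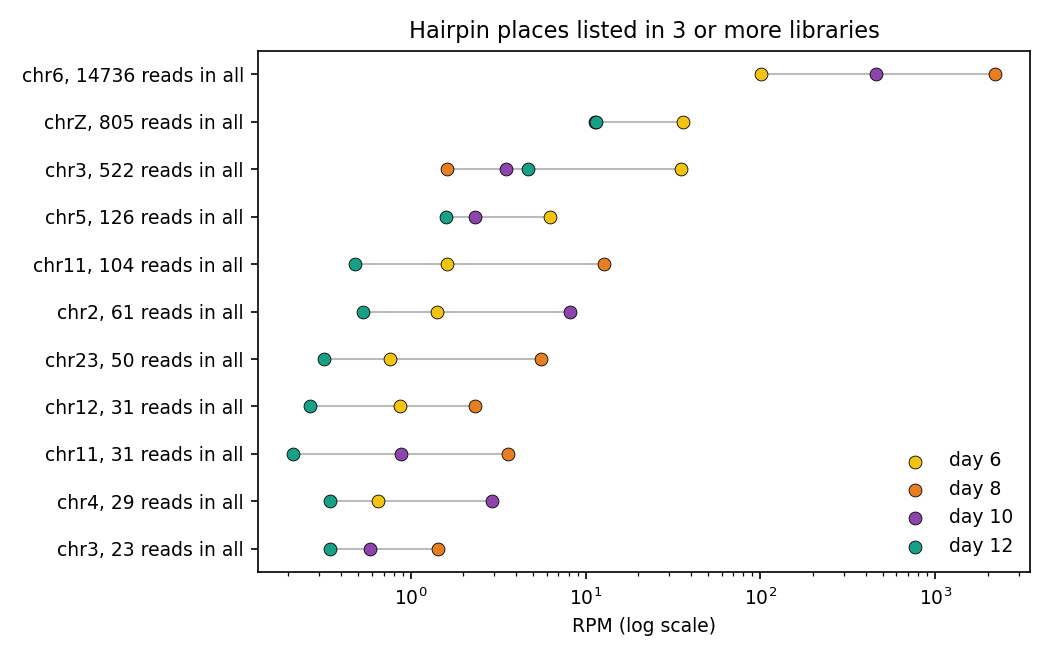
RPM (log scale) of the 11 places listed in 3 or more libraries, with 1 coloured point per library and a grey line over their range. Chromosome 6 runs from 101 to 2188 RPM, chromosome Z and the upper chromosome 3 place reach 36.1 and 35.1 RPM on day 6, and the other 8 stay below 13 RPM.

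The loci listed in exactly 2 libraries fell into 5 pairs of days, and apart from those on chromosomes 16, Z, 3 (4348337) and 5 (19864522) the other 19 had 2 to 28 reads in a library. The highest of these, chr2:3893852-3893873, had 28 reads on day 6 and 15 on day 12. Loci listed on days 6 and 12 numbered 9, while 7 were shared by days 6 and 8, 4 by days 8 and 12, 2 by days 6 and 10 and 1 by days 10 and 12. The sequence at chr19:625991-626013, with 7 reads on day 6 and 6 on day 8, was the only other one of the 231 whose seed occurred in the known lists (miR-1703). Seeds in the known lists were found at 2 of 231 loci (0.866%) and at 5 of 287 loci of lower GC (1.74%). The 228 distinct mature sequences of the GC-rich loci held 217 different seeds. Among seeds held by more than 1 distinct sequence, 3 were shared by separate hairpins, with CGGGCGG at 3 places. Not in this count were identical sequences at separate hairpins. Their seeds were GAATACC on chromosomes 6 and 9, TGGAGAA on chromosome 2 and TGCTTGT on chromosome 4. The loci thus formed no large seed family. Within 10000 bases of a known hairpin lay 5 of the 231 loci and 15 of the 287 loci of lower GC, and no GC-rich hairpin lay opposite a known one.

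The mature sequences of the GC-rich loci started with U in a smaller share than those of lower GC in each of 4 libraries. On day 6 it was U at 13 of 33 loci (39.4%) against 11 of 15 (73.3%), on day 8 at 9 of 27 (33.3%) against 10 of 16 (62.5%), on day 10 at 36 of 141 (25.5%) against 64 of 189 (33.9%) and on day 12 at 13 of 59 (22.0%) against 39 of 82 (47.6%). The difference was -24.2 ± 11.2 percentage points (SD, n = 4 libraries), lower in 4 of 4. The mature sequence is part of the hairpin whose GC chose the locus, so this measure is not independent of the rule and is given as a description, with no test. At all later positions of the same mature sequences U made up 19.03, 18.5, 17.2 and 19.7% on days 6, 8, 10 and 12 at GC-rich loci, and 28.1, 29.5, 27.5 and 28.1% at loci of lower GC. The first base was thus U 2.07, 1.80, 1.48 and 1.12 times as often as the later ones at GC-rich loci, against 2.61, 2.12, 1.23 and 1.69 times at loci of lower GC. Known microRNAs started with U at 56.4 to 63.4% in these libraries, 1.92 to 2.15 times the share at their later positions.

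**Figure D3:**
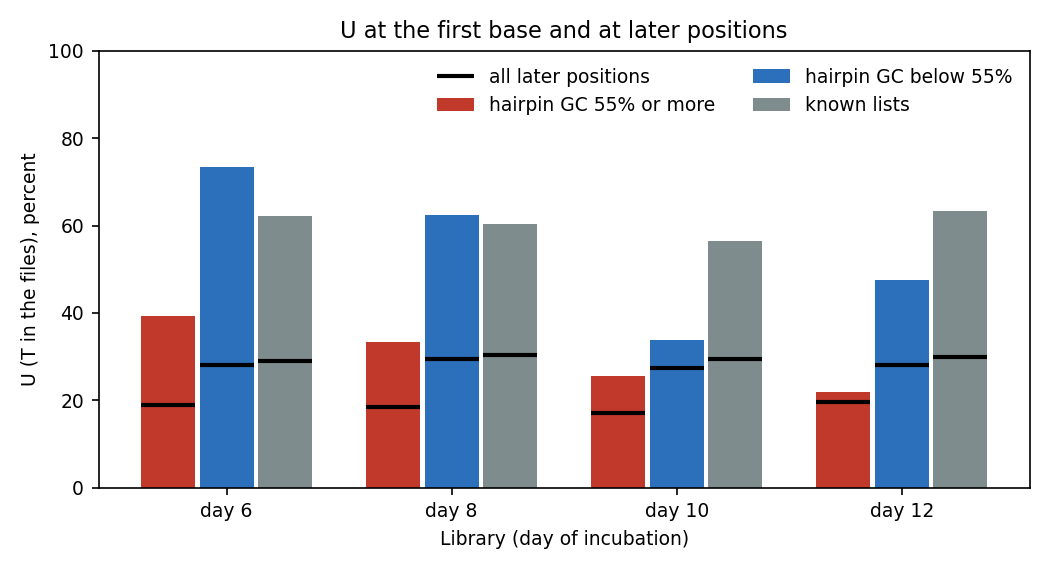
Percent of mature sequences that start with U (bars) and percent of U over all later positions (black lines) in 4 libraries, for GC-rich loci (red), loci of lower GC (blue) and the known lists (grey). The red bars, at 22.0 to 39.4%, are the lowest of the 3 in each library, and so are their black lines.

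Hairpin length had no common direction between the classes, being higher at GC-rich loci in 2 of 4 libraries and lower in 2. At GC-rich loci it averaged 68.3, 73.0, 92.0 and 68.9 nt on days 6, 8, 10 and 12, with SDs over loci of 10.1, 10.7, 23.4 and 11.8 nt. The loci of lower GC averaged 68.2, 67.7, 94.0 and 70.4 nt in the same libraries. The difference was 0.480 ± 3.31 nt (SD, n = 4; exact paired permutation p = 0.875, adjusted p = 1). With 4 libraries this test allows no p below 0.13, so it could not show a separation. The longer hairpins of day 10 were seen in both classes. Mature length averaged 22.2 nt in both classes, with a difference of 0.024 ± 0.047 nt (SD, n = 4) that came from day 12 alone. The lists of days 8 and 10 each held a single length here and could not differ, and day 6 was equal. With day 12 alone differing, the exact paired permutation test could give no value but p = 1, so it decides nothing.

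Folding energy and mature GC follow from the GC that chose the loci and are given without a test. The deposited minimum free energy averaged -37.7, -37.1, -48.6 and -35.0 kcal/mol on days 6, 8, 10 and 12, against -30.4, -27.9, -33.4 and -25.2 kcal/mol at lower GC. The lowest energies at GC-rich loci were those of chr11:20587365-20587385 (-104.0 kcal/mol over 181 nt, 3 reads), chr1:137217577-137217597 (-93.9 over 134 nt, 2 reads) and chr3:21895432-21895452 (-92.1, 2 reads), all on day 10. At lower GC the lowest was -115.6 kcal/mol, also on day 10. The highest at GC-rich loci were those of chr2:66481532-66481555 (-18.4), chr3:43902200-43902222 (-20.6) and chr2:37120676-37120696 (-21.1). The locus with the most hits thus had the highest total energy, over a short hairpin of 56 nt, while per 100 nt other hairpins were weaker, chr5:15862993-15863015 at -26.8 against -32.9 kcal/mol. Mature GC averaged 67.5, 64.4, 67.5 and 66.7% on these days, close to the hairpin GC means of 69.2, 66.6, 67.1 and 67.6%.

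**Figure D4:**
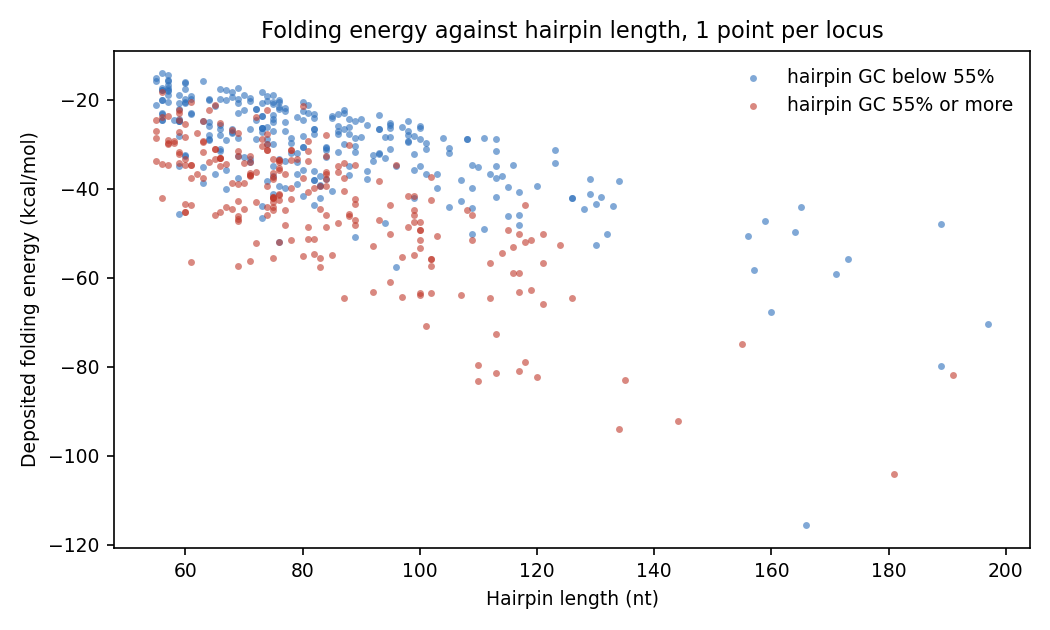
Deposited folding energy (kcal/mol) against hairpin length (nt), with 1 point per locus, for GC-rich loci (red) and loci of lower GC (blue). The red points reach -104.0 kcal/mol at 181 nt, and the lowest blue point lies at -115.6 kcal/mol. Per 100 nt the red points average -52.5 kcal/mol, against -36.3 for the blue ones.

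Over the range of GC the loci were not uniform. In hairpin GC 108 lay from 55 to below 65%, 69 from 65 to below 75% and 54 at 75% or more. The highest values were 91.8% at chr1:104452109-104452131, 89.2% at chr10:20839821-20839841 and 89.1% at chr17:7678470-7678492, with 16, 2 and 8 reads. From the lowest to the highest of these ranges, U at the first base went from 30.6 to 24.6 and 14.8% and C from 20.4 to 27.5 and 42.6%. Hairpins with more than 1 terminal loop went from 22.2 to 13.04 and 3.70%, and the share listed in 2 or more libraries from 9.26 to 13.04 and 14.8%. The dinucleotide CG, which is depleted in most vertebrate DNA, occurred at a median of 0.34, 0.76 and 1.03 times its expected number given the C and G of the hairpin, against 0.22 at loci of lower GC and 0.23 at known ones. All loci with over 1000 reads lay in the lowest range, while the chromosome Z and chromosome 5 sequences lay in the highest, at 75.4 and 83.9%. Just inside the limit of 55% were chr1:2520950-2520970 and chr1:184656638-184656659, both at the limit itself, with 4 and 7 reads. Just outside were chr4:3214464-3214484 at 54.9%, with 2 reads on day 10 and 6 on day 12, and chr11:21850660-21850680 at 54.9% with 2 reads, and there were 57 loci from 55 to below 60% and 72 from 50 to below 55%.

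By structure, 35 of the 231 hairpins (15.2%) had more than 1 terminal loop, against 62 of 287 (21.6%) at lower GC and 4 of 273 known loci (1.47%). Most of the branched GC-rich hairpins, 28, were listed on day 10, where 19.9% of GC-rich and 28.6% of the other hairpins were branched. The mature sequence was paired over a median of 78.3% of its bases at GC-rich loci, 77.3% at lower GC and 85.7% at known loci. It lay on the 5′ arm in 101 of the 231 loci. These values rest on the same hairpin letters as GC and were not tested.

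The loci lay on 28 chromosomes, with 115 on the plus and 116 on the minus strand. Chromosome 1 held the most, 30, followed by chromosome 3 with 23, chromosome 4 with 19, chromosome 2 with 18 and chromosome 5 with 13. Chicken chromosomes comprise a few large ones and many small, gene-dense and GC-rich ones. On chromosomes other than 1 to 5 and Z lay 121 of the 231 loci (52.4%), against 111 of 287 (38.7%) at lower GC. The share was higher for GC-rich loci on day 6 (48.5 against 13.3%, or 16 of 33 against 2 of 15 loci) and day 8 (59.3 against 43.8%). It was also higher on day 10 (55.3 against 38.6%) and day 12 (45.8 against 37.8%). Since the small chromosomes are GC-rich, this share is not independent of the GC rule. This comparison was added after the values were seen and was not tested. Chromosome 12 had 9 GC-rich loci and 1 of lower GC, whereas chromosome 8 had 6 and 16.

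**Figure D5:**
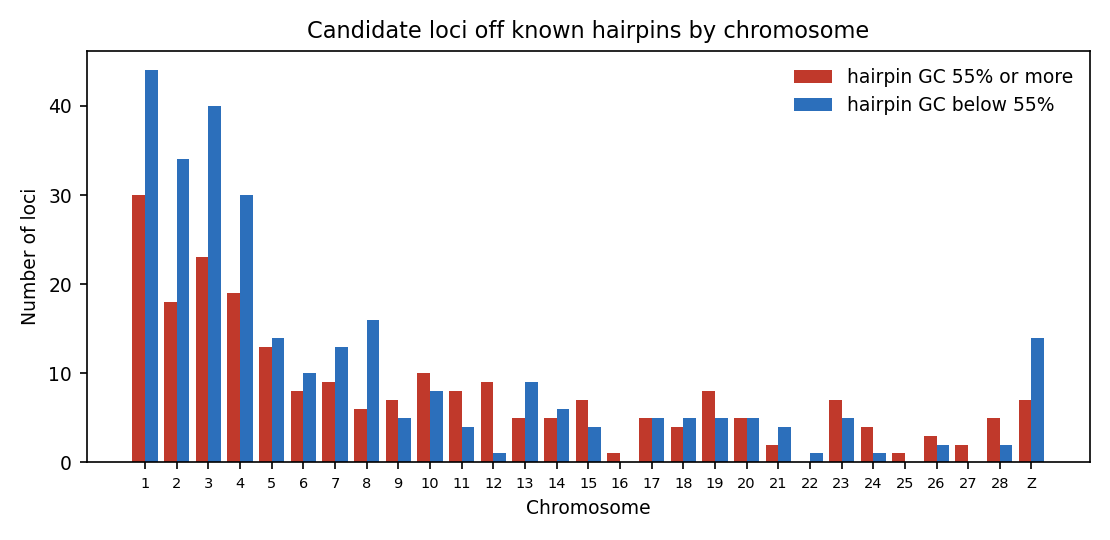
Number of loci on each chromosome for GC-rich loci (red) and loci of lower GC (blue). Blue bars are the taller on chromosomes 1 to 8, 13, 14, 18, 21, 22 and Z. Red bars are the taller on chromosomes 9 to 12, 15, 16, 19 and 23 to 28, and chromosomes 17 and 20 are equal.

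Some loci were near each other. Joined wherever consecutive starts were at most 50000 bases apart, 7 stretches held more than 1 hairpin, with 22 loci in all, and 6 of the 7 held 2 hairpins. The seventh, on the minus strand of chromosome 1 from 104452072 to 104487608, held 9 loci in 7 hairpins over 35537 bases. Their hairpin GC ran from 79.7 to 91.8% and their reads from 6 to 35. This stretch held the only GC-rich locus of day 4, chr1:104452109-104452131 with 16 reads (5.73 RPM), and the only one of day 14, chr1:104484848-104484869 with 7 reads (30.7 RPM). It also held loci listed on days 6, 8 and 12. Of these, chr1:104487220-104487240 had 28 reads on day 6 and its 2-nt longer form 35 reads on day 8, and chr1:104487556-104487576 had 7 reads on day 6 and its longer form 17 on day 8. The day 4 hairpin shared a run of 21 identical bases with that of chr14:4575071-4575091. The pair chr2:134871873-134871893 and chr2:134874654-134874674 shared a run of 94 bases and had 3 reads each on day 10, the same sequence counted at both places.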

How the data were processed

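The authors trimmed adapters, collapsed reads to tags, aligned them with BLAT to Gallus gallus v.2.1 with at most 1 mismatch, compared them with miRBase and folded the flanks; the submitters' processing notes also name TopHat and Cufflinks. The deposited lists give, for each library, the read count, the hairpin GC in percent, the folding energy, star sequences and genomic hits, and the deposited RPM is the count scaled by a library total, recovered here from the RPM of 1 read. On day 4 the names of the RPM rows were in another order, so the total was used. Replicates were not made (1 library a stage).

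Loci were joined by chromosome, strand, start and end, and set aside where hairpins overlapped a known one by 1 base or more. For 6 measures, GC-rich loci were compared with loci of lower GC within the libraries that held 5 or more of each (days 6, 8, 10 and 12), by a two-sided exact paired permutation test over libraries with Benjamini-Hochberg adjustment (Python 3.11.15, numpy 2.4.6, scipy 1.17.1), after tests on simulated data; the first base, which follows from composition, is described without its p. Terminal loops and 3′ extensions were read from the deposited structures, taking the nearest paired base where an end was unpaired. In 244 of 262 member rows the hairpin's coordinates were 1 less than those of the mature sequence, and in 12 the mature sequence was not wholly inside the printed hairpin.

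Members and lists were chosen with earlier results of these data known. Named loci were the 3 with most reads per library, those in 2 or more libraries (the highest in full), the extremes of GC, energy and hits, those with a star or an overlapping member, and those next to the GC limit; near-known and neighbouring loci were named after their values were seen. Empty lines (5 in the predicted and 4 in the known lists), 363 lines of the day 10 known list with a name only, the authors' p-values and the target lists were not analysed here.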

Additional observations from a re-analysis of the deposited data

How the results depend on the processing

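Each stage had 1 library, so there were no replicate numbers to block on, and the pairing in the tests is by library. The number of GC-rich loci was 231, and it was 111 with at least 6 reads, 53 with at least 10 reads and 95 without the day 10 library. Under the other alternatives, a GC limit of 50 or 60% among them, it stayed within 1.5 times. The lower share of a first U, which is not independent of the GC rule, ran from -32.6 to -16.5 percentage points under the 12 alternatives. That range is a description only. The star share also kept its direction, from -11.1 to -0.75 percentage points. The alternatives reuse the same lists. Judging overlap on either strand changed none of these values. All loci lay on numbered chromosomes or Z, so leaving out unplaced sequence could change nothing. Nor could RPM in place of reads, which is the same within a library. The counts of alternatives given here include these. The other differences turned under some alternatives. Median log2 reads turned to 0.0040 at a GC limit of 50% and 0.076 without the day 6 library. This difference kept its sign under 12 of 14 alternatives, and was -0.316 at 6 reads and -0.538 at 10 reads. At 10 reads the exact paired permutation p was 0.125, the smallest that 4 libraries allow. Mature length turned to -0.018 nt at 50%, -0.020 nt at 60% and -0.106 nt at 10 reads. Hairpin length turned to -0.343 nt at 60%, -2.60 nt at 6 reads, -3.05 nt at 10 reads and -1.12 nt without the day 8 library. The share with several genomic hits turned to -1.36 percentage points at 60%. It kept its sign under 11 of 12 alternatives and reached 7.06 percentage points at 50%. The causes were not tested. Days 4 and 14, with 1 GC-rich locus each, entered no comparison.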
